A study of Mus musculus with 3 samples.

Results

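The Mirg cluster is a run of microRNA (miRNA) hairpins in the imprinted Dlk1-Dio3 region of mouse chromosome 12, and it was followed here through 41 mature miRNAs taken from a fixed list of names. Each member was found in the deposited table by its name, cut before its end tag, and rows of one name were summed. 40 of the 41 names had a row, out of 1097 items in the whole table, 659 of them mature mouse miRNAs. The remaining name, miR-299a-5p, had no row. The members were 24 3p and 16 5p arms from 30 hairpins.

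Small RNA was sequenced from fibro/adipogenic progenitors (FAPs), muscle-resident stromal cells from which fibroblasts and fat cells can form. The 3 libraries were 1 from normal, uninjured muscle, 1 from muscle 5 days after injection of cardiotoxin, a snake venom protein used to injure muscle, and 1 from muscle 3 weeks after sciatic denervation. All came from wild-type (WT) mice, from primary cells that were not cultured, and no strain, age or number of animals is given by the labels. As each condition had a single library, no test between conditions was made, and every difference below is one between libraries.

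Imprinted means that a gene is read from the chromosome of only one parent, and in this region the miRNAs come from the maternal copy as parts of long noncoding transcripts that include Meg3, Rian and Mirg. A primary transcript is cut into hairpins, each hairpin into a duplex, and 1 or both strands of the duplex (the 5p and 3p arms) are loaded into Argonaute proteins, where the seed (bases 2 to 8) pairs with target mRNAs. The cluster is best known from the brain, where several members act on dendrites, and in mouse muscle the region's miRNAs are known as targets of the transcription factor MEF2A during regeneration.

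By RefSeq positions on GRCm38.p6, the 29 hairpins that could be matched by name lay between the start of miR-379 and the end of miR-3072 (chr12:109709060-109747960), a stretch of 38.9 kb. The hairpin of miR-666 was not matched and is left out of the values by position. 28 were on the plus strand, and miR-299b was on the minus strand, opposite miR-299a. GENCODE M21 places the Mirg gene at chr12:109729764-109749460 on the plus strand, so that 12 hairpins lay inside it. Of these, 4 lay within an exon, 4 overlapped an exon and 4 lay in introns. The other 17, from miR-379 to miR-539, lay upstream of its annotated start. By the shorter RefSeq annotation, chr12:109734981-109749458, 9 hairpins lay inside and 20 upstream, and the GENCODE bounds are used below. The median distance between neighbouring hairpin starts was 0.780 kb. The deposited table gives no coordinates, and these positions were matched by name.

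A RefSeq mature sequence was found for 37 of the 40 members. The most abundant members are shown first, 5′ to 3′, with the seed in capitals and the prefix mmu for mouse, because their counts made up most of the cluster and because some of their seeds are near copies of each other.
mmu-miR-379-5p: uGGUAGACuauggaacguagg
mmu-miR-411-5p: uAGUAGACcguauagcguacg
mmu-miR-541-5p: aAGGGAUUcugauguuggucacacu
mmu-miR-329-5p: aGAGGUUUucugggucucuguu
mmu-miR-300-3p: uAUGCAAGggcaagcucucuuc
mmu-miR-381-3p: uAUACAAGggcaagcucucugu
Counting from 1 at the 5′ end, miR-379-5p and miR-411-5p differed in the seed by G2A, and miR-300-3p and miR-381-3p by G4A, the member named first giving the first base. Among the 37 members with a RefSeq sequence, 10 pairs had seeds that differed at 1 base.

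One seed was shared exactly by members, AUGUAAC of miR-379-3p and miR-411-3p. Both are given here because the deposited counts of this pair held fractions.
mmu-miR-379-3p: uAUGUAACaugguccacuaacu
mmu-miR-411-3p: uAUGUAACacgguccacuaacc
In the normal library miR-379-3p had 553.5 counts and miR-411-3p 906.5, and in the cardiotoxin library they had 9.5 and 8.5. The rule behind the fractions is not stated, and reads of these near-identical arms may have been divided between them. Their summed level was 327 CPM (counts over the library's total, times 1000000) in normal, 361 in denervated and 4.95 in cardiotoxin.

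A short motif recurred in the 3p arms. ACACGG stood in 5 of the 37 RefSeq member sequences (13.5%) and in 7 of the 1679 mature mouse sequences of the RefSeq table (0.417%). ACAUGG stood in another 4 members and in 24 entries of the table (1.43%). All 9 of these members were 3p arms, searched on the mature strand only, and a match of letters describes the sequence and not a site of action. Both forms are seen in miR-485-3p, miR-154-3p and miR-369-3p, whose seeds differ by G2A from the first to the second and by C4A from the second to the last.
mmu-miR-485-3p: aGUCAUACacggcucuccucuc
mmu-miR-154-3p: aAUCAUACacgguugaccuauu
mmu-miR-369-3p: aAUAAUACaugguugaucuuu

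The sequence printed in the deposited table was identical to the RefSeq entry for 21 of 38 member rows that could be compared. Another 11 rows differed at the 3′ end alone, which leaves the seed as it is. The remaining 6 rows began at another base, so that the seed of the listed sequence was not that of the RefSeq entry. These were miR-485-3p, miR-495-3p, miR-382-3p, miR-496a-3p and both rows of miR-299b-5p. The last is shown because its name and its letters differ.
mmu-miR-299b-5p in RefSeq: gGUUUACCgucccacauacau
mmu-miR-299b-5p as listed: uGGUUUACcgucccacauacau
The listed sequence was letter for letter the RefSeq sequence of miR-299a-5p, the member without a row. Both listed rows began with u. The RefSeq sequence of miR-299a-3p has g at that position, so the minus strand of miR-299b would give c there. By its letters the listed sequence was thus that of the plus-strand arm, miR-299a-5p. How reads were assigned to the name is not stated, and the counts are given under the listed name.

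The libraries held 4471365 counts (normal), 7193088 (denervated) and 3636249 (cardiotoxin), and levels are given in CPM. The table lists few values between 0 and 5. No row had 1 count in any library, between 21 and 28 rows per library were above 0 and under 5, and 50 to 81 rows stood at exactly 5. A value listed as 0 may therefore stand for up to about 4 counts. Folds of single members against it were taken against 5 counts (1.12 CPM in normal, 0.695 in denervated and 1.38 in cardiotoxin) and are given as lower bounds. Sums took a listed 0 as 0 unless 5 counts are named. Intervals are 95% exact binomial (Clopper-Pearson) intervals, which hold counting error alone, and without molecular identifiers PCR copies were counted as separate molecules.

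The labelled cell type was checked against 11 mesenchymal miRNAs, 10 of which had a row. Their summed level was 276667 CPM in normal, 266878 in denervated and 18414 in cardiotoxin, and miR-214-5p was listed at 0 in cardiotoxin. The 4 most abundant of them, miR-99a-5p, miR-125b-5p, miR-199b-3p and miR-199a-5p, were at 70613, 58043, 44648 and 32316 CPM in normal and at 1441, 664, 242 and 195 in cardiotoxin. Of 8 leukocyte miRNAs, the sum was 422 CPM in normal, 762 in denervated and 24010 in cardiotoxin. The cardiotoxin library therefore stood apart from the other two in both lists, and each result below that rests on it carries this difference.

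In normal FAPs the 40 members together made up 1.63% of the library's counts (95% interval 1.62 to 1.64%), or 16328 CPM. In the denervated library they made up 1.63% (1.62 to 1.63%), or 16253 CPM. In the cardiotoxin library they made up 0.0180% (0.0166 to 0.0194%), or 180 CPM, from 653 counts in all. Normal and denervated were thus at nearly the same summed level, and cardiotoxin was far below both.

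**Figure D1:**
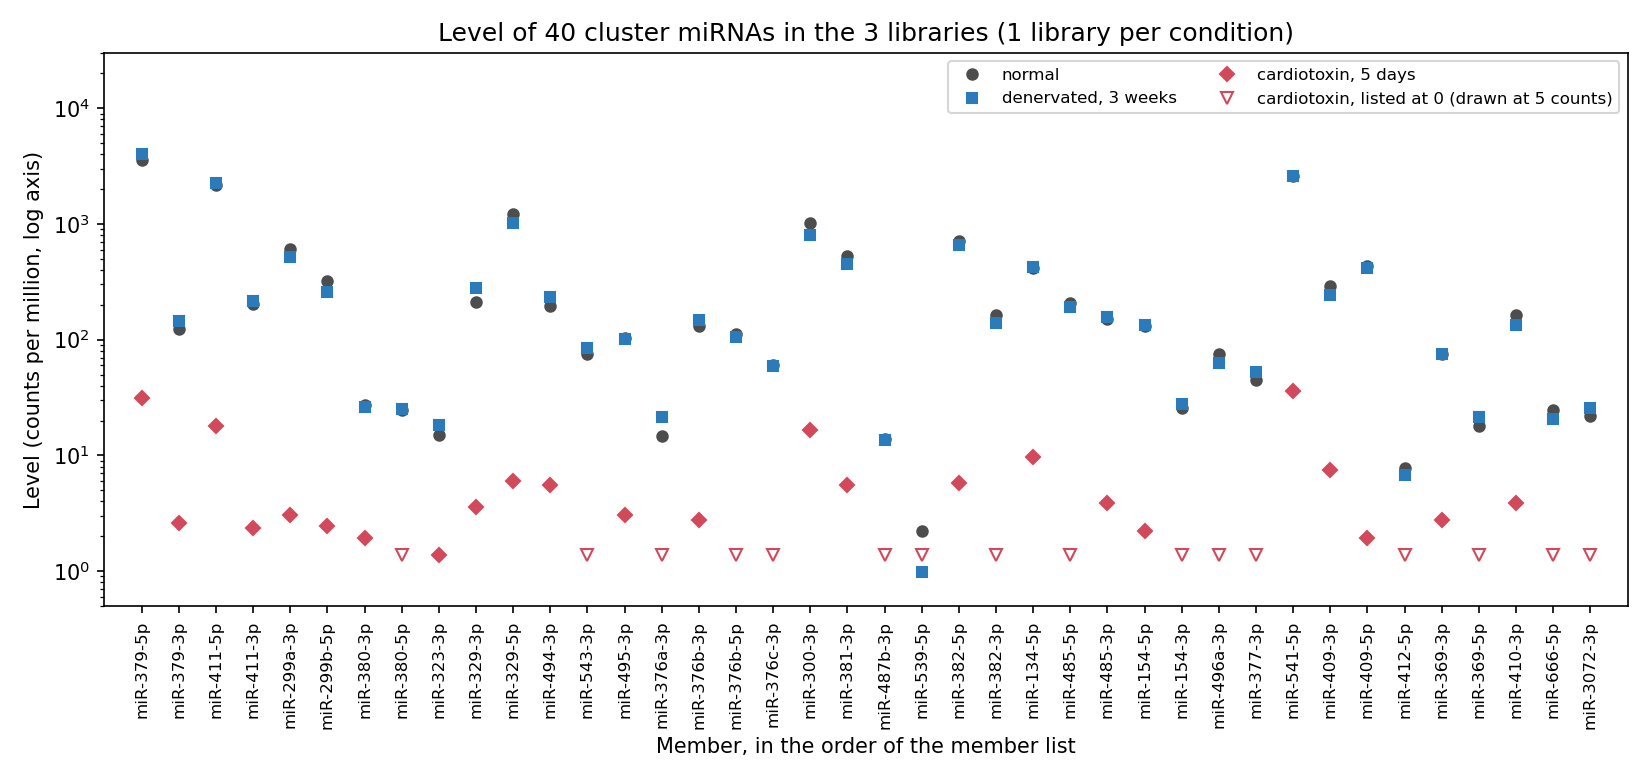
Level of each of the 40 members (x axis, in the order of the member list) in CPM on a log axis, with 1 point per library; open triangles mark members listed at 0 in cardiotoxin, drawn at 5 counts. Normal and denervated points lie on or near each other from 2.24 to 3596 CPM in normal, and the cardiotoxin points lie below both, at most at 36.0 CPM, except for miR-539-5p, whose open triangle lies above its denervated point of 0.973 CPM.

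Levels within the cluster covered a wide range although the hairpins lie next to each other. In normal the members ran from 2.24 CPM (miR-539-5p, 10 counts) to 3596 CPM (miR-379-5p, 16077 counts), with a median of 132 CPM. In denervated they ran from 0.973 to 4055 CPM around a median of 137 CPM. 24 of the 40 reached 100 CPM in normal and 24 in denervated, against none in cardiotoxin, where the median was 2.27 CPM. Spearman's rho between position and level over the 29 hairpins, which share libraries and depth, was −0.25 in normal, as a description.

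miR-379-5p, the first miRNA of the cluster, was its most abundant member, at 3596 CPM in normal, 4055 in denervated and 31.6 in cardiotoxin. It stood 44th, 41st and 229th by level among the mature mouse miRNAs of the 3 libraries. miR-541-5p followed at 2583, 2588 and 36.0 CPM. miR-411-5p, whose seed differs from that of miR-379-5p at 1 base, was at 2175, 2276 and 17.9 CPM. These 3 members were nearly level between normal and denervated and were the highest members of the cardiotoxin library as well.

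miR-329-5p was at 1227 CPM in normal, 1026 in denervated and 6.05 in cardiotoxin. miR-300-3p was at 1023, 810 and 16.5 CPM, and its seed neighbour miR-381-3p at 524, 453 and 5.50 CPM. All 3 were lower in denervated than in normal, by small amounts, and far lower in cardiotoxin. miR-382-5p was at 717, 661 and 5.78 CPM, and miR-299a-3p at 604, 517 and 3.03 CPM. miR-134-5p, which limits the size of dendritic spines in rat hippocampal neurons by repressing Limk1, was at 415, 425 and 9.63 CPM. It was among the members with the same level in normal and denervated within counting error.

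The remaining members of the 12 most abundant were miR-409-5p at 430, 417 and 1.93 CPM, miR-299b-5p at 322, 258 and 2.48 CPM, and miR-409-3p at 289, 242 and 7.43 CPM. The 2 arms of miR-409 were thus in one order in normal and denervated and in the other in cardiotoxin. The 28 members below these had at most 214 CPM in normal, 279 in denervated and 5.50 in cardiotoxin.

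A few members made up most of the cluster. The 5 highest members held 64.9% of the cluster's counts in normal, 66.2% in denervated and 62.2% in cardiotoxin. In normal and denervated these were miR-379-5p, miR-541-5p, miR-411-5p, miR-329-5p and miR-300-3p. In cardiotoxin they were miR-541-5p, miR-379-5p, miR-411-5p, miR-300-3p and miR-134-5p. Shares within the cluster do not depend on how libraries are scaled to each other.

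**Figure D2:**
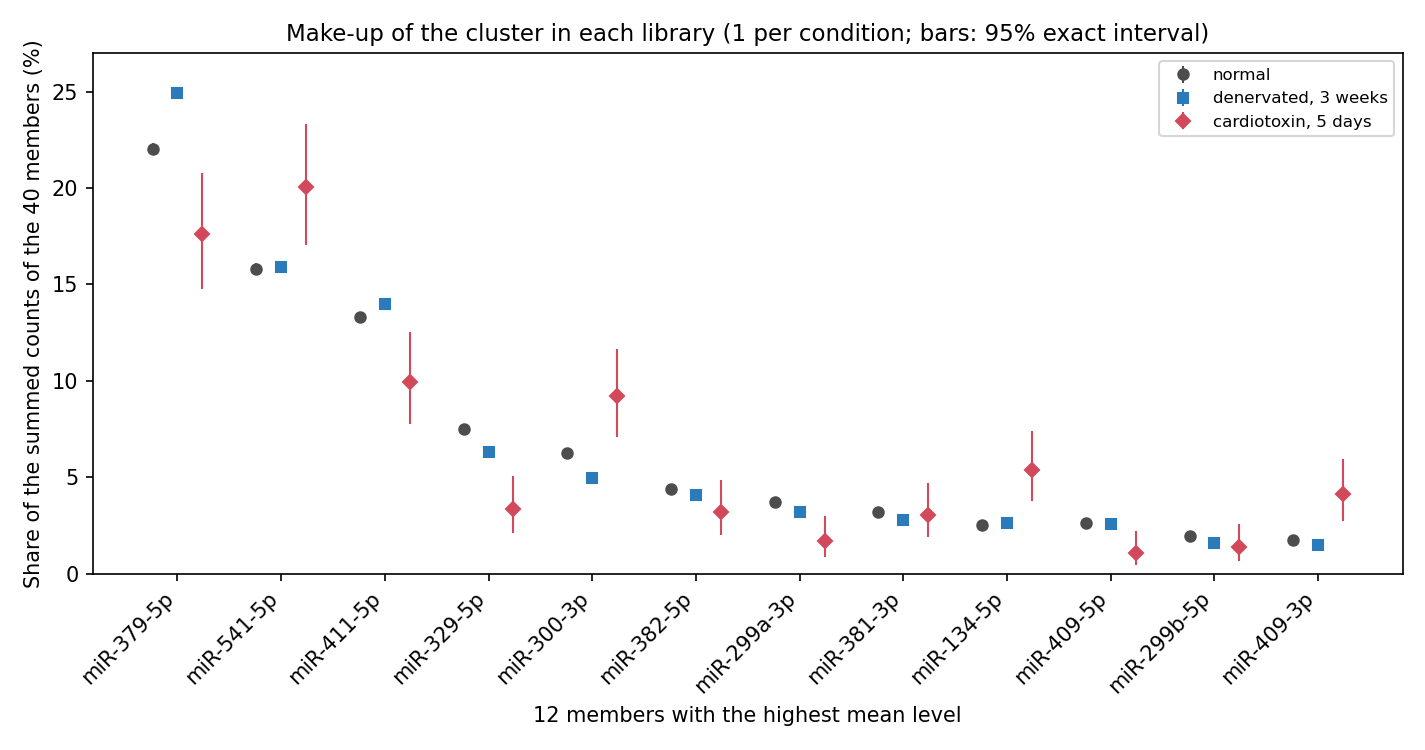
Share of the summed counts of the 40 members (y axis, %) held by the 12 members with the highest mean level (x axis) in each library, 1 point per library with its 95% exact interval. miR-379-5p leads in normal (22.0%) and denervated (24.9%), and miR-541-5p has the highest point in cardiotoxin (20.1%).

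In denervated FAPs the share of miR-379-5p was 24.9% (24.7 to 25.2%) against 22.0% (21.7 to 22.3%) in normal. The share of miR-329-5p was 6.31% (6.18 to 6.46%) against 7.52% (7.33 to 7.71%). For 5 members the denervated interval lay above the normal one, for 9 it lay below, and for 26 the intervals overlapped. No such count was made outside the cluster. With nearly equal sums, these shares repeat the ratios of denervated to normal, which are given below beside all items. The 5 were both arms of miR-379, miR-411-5p, miR-329-3p and miR-494-3p. The 9 were miR-299a-3p, miR-299b-5p, miR-329-5p, miR-300-3p, miR-381-3p, both arms of miR-382, miR-409-3p and miR-410-3p.

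Denervation is the comparison in which the cluster moved little. The summed level in denervated was 0.995 times that in normal (0.986 to 1.005). None of the 40 members was 2-fold higher or 2-fold lower on the log2(CPM + 1) scale. Over all 1097 items, 9.94% were 2-fold higher and 11.7% were 2-fold lower, and among the 446 items whose mean level reached 10 CPM each share was 6.28%. With listed 0s at 5 counts the shares over all items were 5.47% and 6.29%. 37 of the 40 members reached that mean, the exceptions being miR-487b-3p, miR-412-5p and miR-539-5p. The median log2 ratio was −0.01 over the 40 members and 0.00 over all items.

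Smaller differences went both ways. Counting intervals of the ratio lay above 1 for 7 members and below 1 for 10, and held 1 for 23. Over all items, 14.8% lay above 1 and 22.8% below, but many of these had few counts. Among the 446 items whose mean level reached 10 CPM, 27.1% lay above 1 and 43% below. Of the 37 members that reached that mean, 7 lay above 1, 10 below, and 20 held 1. The 7 were miR-376a-3p, both arms of miR-379, miR-329-3p, miR-494-3p, miR-376b-3p and miR-411-5p. The ratios of all 7, without their intervals, stayed above 1 under 6 other scalings of the libraries. The 10 were miR-300-3p, miR-299b-5p, miR-410-3p, miR-329-5p, miR-496a-3p, miR-409-3p, miR-299a-3p, miR-381-3p and both arms of miR-382. Of these, the ratio of miR-382-5p turned to the other side under some scalings (log2 ratio −0.12 as measured, at most 0.01). Intervals were not computed under the other scalings, so the counts of 7, 10 and 23 hold for division by library totals alone.

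The highest ratio was that of miR-376a-3p, a member of a family whose transcripts are edited from adenosine to inosine in brain. Its level was 14.8 CPM in normal against 21.4 in denervated, a fold of 1.45 (1.08 to 1.97) from 66 and 154 counts. miR-329-3p followed at 214 and 279 CPM, a fold of 1.31 (1.21 to 1.41), and miR-323-3p at 15.0 and 18.5 CPM, a fold of 1.23 (0.913 to 1.68). The first 2 intervals excluded 1 and the last held it.

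At the lower end, miR-300-3p went from 1023 CPM to 810 in denervated, a fold of 0.791 (0.761 to 0.823). miR-299b-5p was at 322 and 258 CPM, a fold of 0.802 (0.748 to 0.859). miR-410-3p, which together with miR-433 represses the Wnt antagonist Sfrp2 in mouse myoblasts, was at 162 and 133 CPM, a fold of 0.821 (0.745 to 0.906). miR-539-5p had a fold of 0.435 from 10 and 7 counts, with an interval of 0.141 to 1.27 that held 1.

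**Figure D3:**
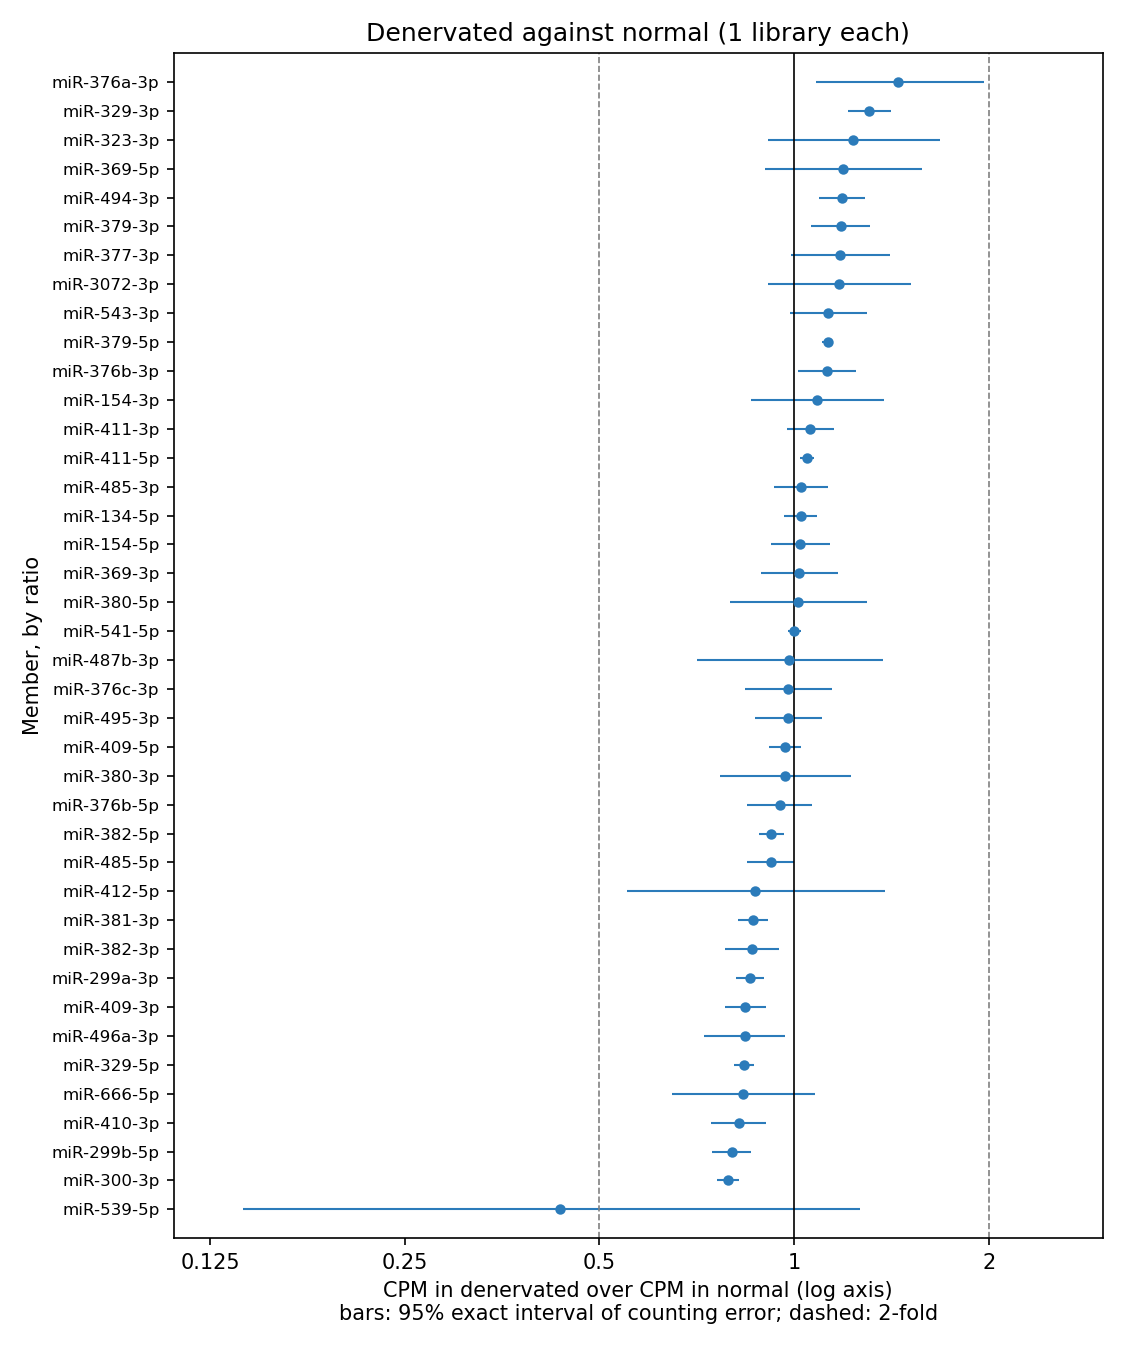
Ratio of CPM in denervated to CPM in normal (x axis, log axis) for the 40 members sorted by ratio (y axis), 1 library each, with 95% exact intervals of counting error; dashed lines mark 2-fold. Points other than miR-539-5p (0.435) lie between 0.791 and 1.45.

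The arms of miR-329 differed in opposite directions. In this hairpin, which acts with miR-134 in activity-dependent dendrite growth of rat neurons, the 5p arm had 5487 counts in normal and 7382 in denervated, and the 3p arm 955 and 2009. The 5p share was 85.2% (84.3 to 86.0%) in normal and 78.6% (77.8 to 79.4%) in denervated, a difference of −6.57 percentage points. The 5p arm was thus lower and the 3p arm higher in denervated relative to normal. The arms of this hairpin are given here.
mmu-miR-329-5p: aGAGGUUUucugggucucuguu
mmu-miR-329-3p: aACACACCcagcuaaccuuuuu

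Both arms were members for 10 hairpins, all with at least 100 counts in normal and in denervated. The intervals of the 5p share were apart between these libraries in 2, miR-329 and miR-409, and overlapped in 8. Hairpins outside the cluster were not counted in this way, so no general share stands beside these numbers. In miR-409 the 5p share was 59.9% (58.1 to 61.6%) in normal and 63.2% (61.8 to 64.6%) in denervated. Its direction was therefore opposite to that of miR-329. Across the other 8 hairpins the 5p share in normal ran from 19.6% in miR-369 to 96.7% in miR-379, and the differences from denervated were at most 4.13 percentage points in size.

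**Figure D4:**
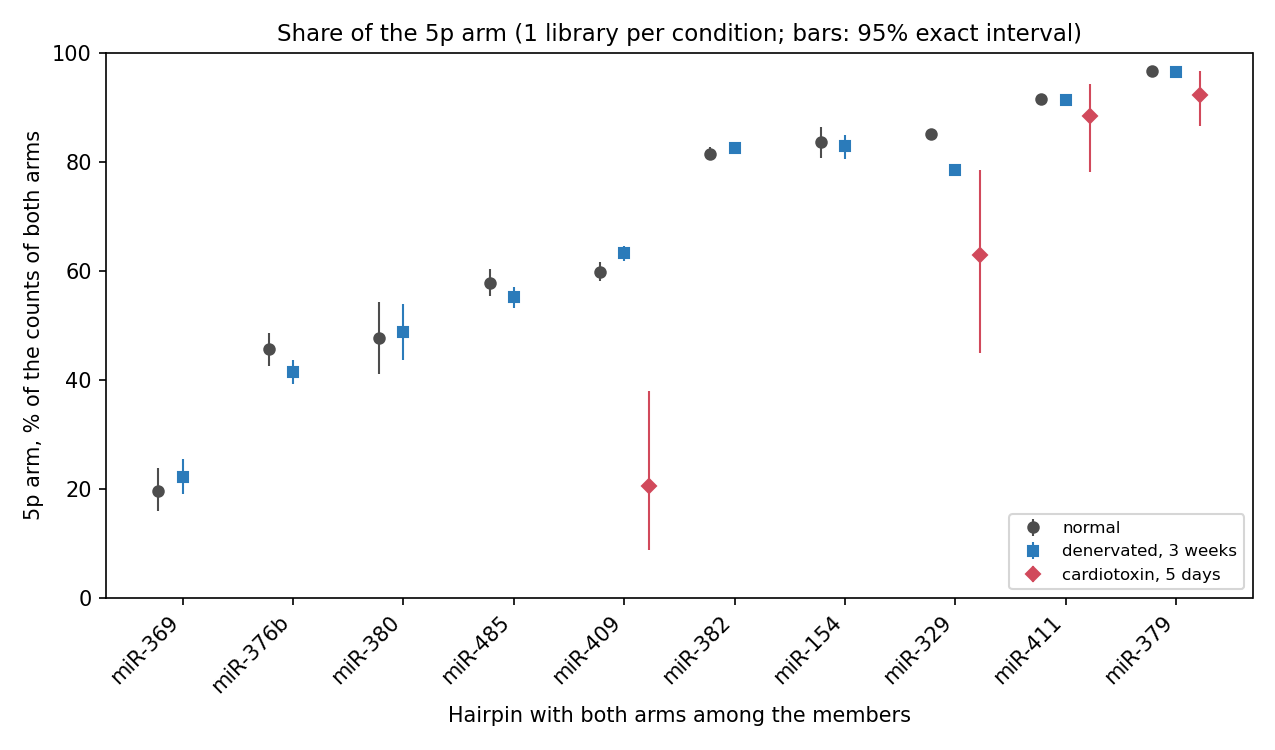
Share of the 5p arm in the counts of both arms (y axis, %) for 10 hairpins (x axis, sorted by the normal share), 1 library per condition with 95% exact intervals; cardiotoxin points are drawn where both arms together have at least 20 counts and neither is listed at 0. Normal and denervated points lie close together in most hairpins, miR-329 goes from 85.2% to 78.6%, and miR-409 in cardiotoxin is at 20.6%.

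After cardiotoxin the whole cluster was lower. The summed level in normal was 90.9 times that in cardiotoxin (84.2 to 98.4), or 81.0 times with each listed 0 taken as 5 counts. All 40 members were at least 2-fold lower on the log2(CPM + 1) scale, and 39 of 40 with a listed 0 taken as 5 counts. Over all 1097 items 32.8% were 2-fold lower by the first rule and 21.7% by the second, and 31.2% and 22.1% were 2-fold higher. Among the 446 items whose mean level reached 10 CPM, 39.5% were lower and 32.3% higher, a split of 176 and 144. Dividing by totals that omit miR-21a-5p raised CPM, so that 490 items reached that mean, of which 139 were lower and 255 higher. The counting interval of the fold lay below 1 for 39 of 40 members and for 25.5% of all items, miR-539-5p being the exception in both counts of 39. Many of all items had few counts. Among the 446 items whose mean level reached 10 CPM, 48.9% lay below 1 and 44.6% above. The median log2 ratio was −5.33 over the 40 members (−5.09 with listed 0s at 5 counts) and 0.00 over all items. In bulk RNA, fewer cells of a type and less RNA per cell cannot be told apart.

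24 members had counts in cardiotoxin, and their levels in normal were 10.9 to 223 times higher, with a median of 59.6. The 3 most abundant members were 114-fold (miR-379-5p, 94.6 to 138), 71.7-fold (miR-541-5p, 60.4 to 85.8) and 122-fold (miR-411-5p, 95.4 to 158) lower in cardiotoxin. The intervals of miR-541-5p and of the other 2 did not overlap, so the folds between these libraries differed by more than counting error. Spread between libraries of one condition is not in these intervals. The largest folds among counted members were 223 (108 to 556) for miR-409-5p, from 1923 and 7 counts, and 203 (134 to 324) for miR-329-5p, from 5487 and 22 counts.

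The smallest folds were those of miR-323-3p and miR-380-3p. miR-323-3p had 67 counts in normal and 5 in cardiotoxin, a fold of 10.9 (4.44 to 34.6). miR-380-3p had 122 and 7, a fold of 14.2 (6.67 to 36.0). Both counts in cardiotoxin were at or near the smallest the table lists, and members of such levels could be counted there only if their fold was small. miR-134-5p, at 43.1-fold (30.9 to 62.0) from 35 cardiotoxin counts, and miR-300-3p, at 62.0-fold (48.1 to 81.4) from 60, were below the fold of the summed cluster at levels where this limit does not apply.

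16 members were listed at 0 in cardiotoxin, and none in normal or denervated. The highest of these in normal was miR-485-5p, which represses the synaptic vesicle protein SV2A in rat hippocampal neurons, with 934 counts in normal and 1383 in denervated. Taken at 5 counts in cardiotoxin, it was at least 152-fold lower than in normal, and the counting interval of that ratio reached down to 64.9. miR-382-3p had 725 and 1004 counts and was at least 118-fold lower (interval from 50.3). miR-376b-5p had 496 and 758.5 counts and was at least 80.7-fold lower (interval from 34.3).

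The other 13 members listed at 0 were miR-496a-3p, miR-543-3p, miR-376c-3p, miR-377-3p, miR-154-3p, miR-380-5p, miR-666-5p, miR-3072-3p, miR-369-5p, miR-376a-3p, miR-487b-3p, miR-412-5p and miR-539-5p. Their counts in normal ran from 10 (miR-539-5p) to 335 (miR-496a-3p), and their bounds from 1.63-fold to 54.5-fold. For miR-376a-3p, with 66 counts in normal, the bound was 10.7-fold (interval from 4.38). For miR-539-5p the bound of 1.63 falls short of 2-fold, and a difference of that size was not detectable at this depth.

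The arms of miR-409 were unequal in cardiotoxin. The 3p arm was 38.9-fold lower than in normal (26.6 to 59.2) and the 5p arm 223-fold, so that the 5p share was 20.6% (8.70 to 37.9%, from 34 counts) against 59.9% in normal. The capitals again mark the seeds of this pair.
mmu-miR-409-5p: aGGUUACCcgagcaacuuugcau
mmu-miR-409-3p: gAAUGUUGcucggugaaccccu
In miR-329 the 5p share in cardiotoxin was 62.9% (44.9 to 78.5%, from 35 counts) against 85.2%. In miR-379, the only hairpin with at least 100 counts in cardiotoxin, it was 92.4% (86.7 to 96.6%) and its interval overlapped that of normal. In miR-411 it was 88.4% (78.2 to 94.3%) and also overlapped. In each of the other 6 hairpins 1 arm was listed at 0 in cardiotoxin, and no share is given.

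Within the cluster's own counts, 11 members had a higher share in cardiotoxin than in normal by intervals that did not overlap, 5 had a lower share, and 24 overlapped. No such count was made for sets of miRNAs outside the cluster. The 16 members listed at 0 had an upper bound of 1.76% in cardiotoxin. Their normal shares were at most 1.28% (miR-485-5p), so none of them could be called lower. For miR-323-3p and miR-380-3p, any listed count in cardiotoxin gave a higher share. The split of 11 and 5 thus depends on the smallest counts listed and does not show a direction. The 5 were miR-379-5p, miR-411-5p, miR-299a-3p, miR-329-5p and miR-409-5p. Among the 11, miR-541-5p was at 20.1% (17.1 to 23.3%) against 15.8%, miR-134-5p at 5.36% (3.76 to 7.38%) against 2.54%, and miR-409-3p at 4.13% (2.74 to 5.96%) against 1.77%. The others were miR-380-3p, miR-323-3p, miR-494-3p, miR-495-3p, miR-300-3p, miR-485-3p, miR-369-3p and miR-410-3p.

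**Figure D5:**
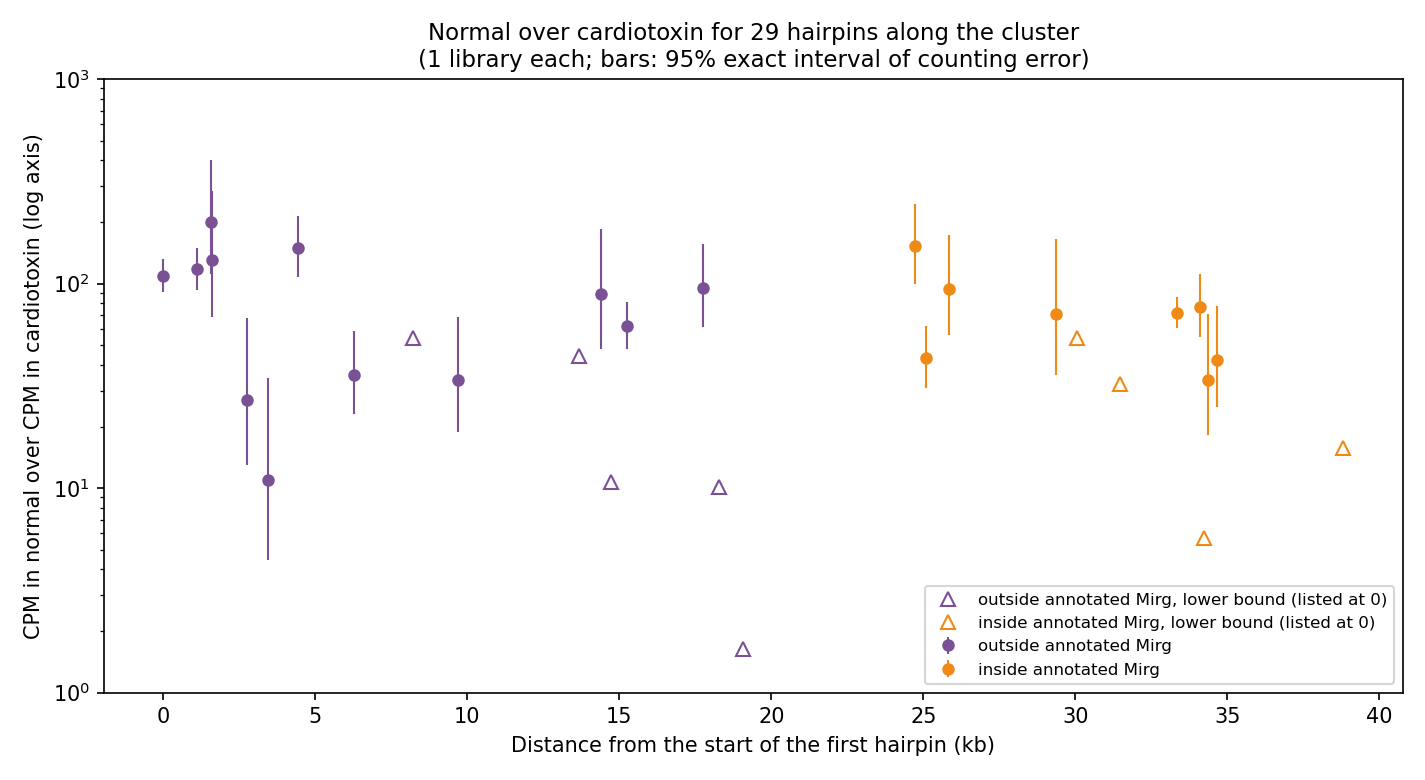
Ratio of CPM in normal to CPM in cardiotoxin (y axis, log axis) for 29 hairpins against the distance of each from the start of the first hairpin (x axis, kb), 1 library each; points have 95% exact intervals, and open triangles are lower bounds for hairpins listed at 0. Counted hairpins lie between 10.9- and 200-fold, and those inside annotated Mirg, which begin 24.7 kb from the first, between 33.7- and 152-fold. Where only 1 arm was listed at 0, it was summed as 0 and the hairpin is drawn as counted. The 152-fold point, miR-382, is such a case and would be lower with that arm at 5 counts.

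Along the cluster the lower level in cardiotoxin was found from end to end. The 17 hairpins upstream of annotated Mirg summed to 10787 CPM in normal, 10872 in denervated and 106 in cardiotoxin. The 12 hairpins inside it summed to 5516, 5360 and 73.4 CPM. Normal was therefore 102 times cardiotoxin (91.9 to 113) upstream and 75.1 times (66.6 to 85.1) inside. Both folds took listed 0s as 0 and would be lower with 5 counts for each. Counted hairpins ranged from 10.9-fold for miR-323 to 200-fold for miR-299a, both within the first 3.45 kb, and the value of miR-323 rests on 5 counts. Spearman's rho between position and the log2 ratio of cardiotoxin to normal was 0.34 over the 29 hairpins and 0.50 over the 15 with a mean of 100 CPM or more, as a description of hairpins that share both libraries. Hairpins listed at 0 in cardiotoxin are among the 29 but not among the 15. Their log2 ratios were set by the normal level and the 1 added to each CPM. By the RefSeq bounds of Mirg, an annotation tried after the data were seen, the folds were 99.2 (90.5 to 109) upstream and 71.3 (61.9 to 82.4) inside. In denervated, normal was 0.992 times the denervated sum upstream (0.981 to 1.004) and 1.03 times inside (1.01 to 1.05).

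Set against denervated rather than normal, the cardiotoxin library gave values of the same kind, and both comparisons use that one library. The summed level in denervated was 90.5 times that in cardiotoxin (83.8 to 97.9). 39 of 40 members were at least 2-fold lower in cardiotoxin, by either treatment of listed 0s, against 29% and 21.2% of all items, and miR-539-5p was the exception. Of all items, 31% and 24.3% were higher, and among those whose mean reached 10 CPM 38.6% were lower and 33.6% higher. The median log2 ratio was −5.37 over the 40 members and 0.00 over all items. The lowest log2 ratios were −7.59 for miR-485-5p, −7.19 for miR-329-5p and −7.16 for miR-409-5p, and the highest among members whose mean reached 10 CPM were −3.04 for miR-323-3p, −3.23 for miR-380-3p and −4.36 for miR-369-3p.

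The decrease can be read beside the lists of other miRNAs in the same libraries. From normal to cardiotoxin the summed mesenchymal miRNAs were 15.0-fold lower, with 10 of 10 at least 2-fold lower and a median log2 ratio of −6.45. Most of the sum that was left in cardiotoxin came from miR-22-3p, at 28212 CPM in normal and 11317 in cardiotoxin, and miR-10b-5p, at 10719 and 3498, both named after their values were seen. The leukocyte miRNAs summed to 56.9 times their normal level, with 8 of 8 at least 2-fold higher. The 4 most abundant of these, miR-342-3p, miR-142a-5p, miR-223-3p and miR-142a-3p, were at 234, 39.4, 7.38 and 6.71 CPM in normal and at 7220, 5833, 5406 and 3426 in cardiotoxin. In normal and denervated, miR-223-5p and miR-511-3p were listed at 0. The part of these lists in the result was not tested.

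Endothelial miR-126a-3p and miR-126a-5p summed to 5401 CPM in normal, 1659 in denervated and 19251 in cardiotoxin. The 4 smooth muscle and pericyte miRNAs summed to 45050, 27916 and 8402 CPM, and the 5 muscle fibre miRNAs with a row to 897, 3140 and 922 CPM, with miR-499-5p listed at 0 in cardiotoxin. From normal to cardiotoxin the muscle fibre miRNAs did not go one way, with 2 of 5 at least 2-fold higher and 1 lower on the log2(CPM + 1) scale, the lower one being the one listed at 0. The 7 epithelial miRNAs summed to 909, 471 and 301 CPM with miR-205-5p listed at 0 in cardiotoxin, and 4 neural and glial ones to 48.8, 32.4 and 50.6 CPM with miR-9-3p listed at 0 there. The epithelial miRNAs were also mixed from normal to cardiotoxin, with 2 of 7 at least 2-fold higher, 2 lower and a median log2 ratio of 0.49. In denervated, where the members' sum was 0.995 times the normal one, the muscle fibre sum was 3.50 times and the endothelial sum 0.307 times the normal one. The part of these lists in the result was not tested either.

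Other miRNAs of the Dlk1-Dio3 region lie outside the cluster, and 24 of 37 on a list of them had a row. Their sum was 26878 CPM in normal, 21121 in denervated and 180 in cardiotoxin. The last was 149-fold below normal with listed 0s, which 13 of the names had in cardiotoxin, summed as 0. 23 of the 24 were at least 2-fold lower in cardiotoxin than in normal on the log2(CPM + 1) scale, and 21 with listed 0s at 5 counts. The 4 most abundant were miR-127-3p at 18290, 13016 and 116 CPM, miR-434-3p at 2475, 2160 and 23.4, miR-136-3p at 1712, 1322 and 9.35, and miR-434-5p at 1419, 1374 and 7.70. In denervated the sum was 0.786 times that in normal, beside 0.995 times for the members.

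Mature arms of the same hairpins and their neighbours that are not members were rarer. 21 of 36 had a row, with a sum of 296 CPM in normal and 322 in denervated. All 21 were listed at 0 in cardiotoxin, and 5 of them in normal as well. With listed 0s at 5 counts, 9 of the 21 were at least 2-fold lower in cardiotoxin than in normal, and for the other 12 such a difference was not detectable at this depth. Their most abundant names were miR-668-3p at 94.2 CPM in normal and 93.6 in denervated, miR-1193-3p at 68.2 and 72.7, and miR-667-3p at 62.2 and 84.7.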

How the data were processed

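Small RNA libraries were made with a TruSeq kit from total RNA, per the labels' protocols. The submitters' processing notes list StringTie without a version or role. The aligner, the miRBase release and the build used are not stated in any source read here. The deposited table gives an estimated count per row and library, marked raw per the file headers, with fractions in 6 of 41 member rows. It also gives a normalized signal, which equals the count times 1.11 (normal), 0.746 (denervated) or 1.12 (cardiotoxin) and was used as an alternative scaling, and a p-value per row by the authors, which compares reads of single libraries and was not used. 3 lines emptied for this work were not analysed here. Rows were summed for the 7 mature mouse names with several, of which 1, miR-299b-5p, is a member. Counts were divided by library totals (CPM). Ratios are log2 of CPM plus 1, folds are from CPM, calls are at 2-fold, and the filter is a mean of 10 CPM. For intervals, arm shares and scaling factors, counts were rounded to whole numbers. Intervals of ratios were tried on counts simulated with counting error alone, which does not cover listed 0s, arm shares or spread between libraries. The floor for a listed 0 was set at 5 counts after the table's smallest values were seen, in place of 3 counts.

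The members, lists and naming rule were chosen with earlier results of these data known. The text names the 12 members with the highest mean CPM, the 3 highest and 3 lowest ratios of each comparison among filtered members, members listed at 0, arms whose shares were apart, shared seeds, and up to 4 miRNAs per other list. Sequences and hairpin positions are from RefSeq (GRCm38.p6), and Mirg exons from GENCODE M21 (GRCm38). Alternatives were 6 library scalings (edgeR 4.0.16 TMM and DESeq2 1.42.0 size factors in R 4.3.3 among them), the highest row of a name, 2 filters, a pseudocount of 0.5, a threshold of 1.5-fold and a minimum of 20 counts for arm shares. Python 3.11.15, pandas 2.3.3 and scipy 1.17.1 were used.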

Additional observations from a re-analysis of the deposited data

How the results depend on the processing

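Against normal and against denervated, the kept members at least 2-fold lower in cardiotoxin were 37 of 37 as measured, 37 or 38 under the 6 scalings, 37 with a listed 0 at 5 counts (chosen after seeing the data), and 18 in each comparison with a filter at 100 CPM, which leaves fewer members. Since no member exceeded 36.0 CPM in cardiotoxin, most passed these filters through normal and denervated, so counts of kept members do not show stability. With no filter the counts were 40 and 39. None was 2-fold apart between denervated and normal under any alternative run, and no kept member was 1.5-fold apart. The 1.5-fold run left out miR-539-5p, which is below the filter and had a log2 ratio of −0.71.

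The median log2 ratio of kept members, −5.51 in cardiotoxin against normal, was −4.76 with totals without miR-21a-5p, −5.13 without the 5 most abundant items, −5.33 with no filter, −6.44 with the 100 CPM filter, −5.71 with a pseudocount of 0.5 and −5.11 with listed 0s at 5 counts. The summed level, −6.51, was −6.79 with TMM, −6.68 with DESeq2 factors, −5.42 without miR-21a-5p, −5.72 without the 5 most abundant items, −6.79 by the authors' signal and −6.34 with listed 0s at 5 counts. Against denervated, the median of −5.53 was −5.90, −5.82, −4.99, −5.26 and −5.90 in the same order of scalings, −5.37 with no filter, −6.17 at 100 CPM, −5.82 with the pseudocount of 0.5 and −5.32 with listed 0s at 5 counts. The sum, −6.50, was −6.89, −6.80, −5.54, −5.75 and −6.89, and −6.33 with listed 0s at 5 counts.

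For denervated against normal the median of 0.02 was 0.11, 0.14, 0.14, 0.054 and 0.12 in that order, −0.010 with no filter and −0.081 at 100 CPM. The sum, −0.01, was 0.092, 0.12, 0.12, 0.037 and 0.10. Its sign, and that of the median, depends on these settings, since both lie near 0. Of 37 kept members 20 were above 0 as measured and 20 to 27 under the scalings. The scalings moved the median of the 446 items that passed the filter as measured. The shifts were −0.28 to 1.06 in cardiotoxin against normal, −0.39 to 0.95 against denervated and 0.00 to 0.11 in denervated against normal. Items 2-fold higher and lower, 144 and 176 in cardiotoxin against normal, of 446 items, were 255 and 139 of the 490 that passed the filter without miR-21a-5p, and against denervated 150 and 172 were 247 and 139, so both the scaling and the items differed.

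With a minimum of 20 counts, 5 hairpins in place of 1 had enough counts in cardiotoxin for a 5p share, among them miR-382, whose 3p arm was listed at 0 and whose share is not given. No paired analysis was possible because each condition has 1 library. Depth limits the cardiotoxin values most: of 40 members there, 7 had fewer than 10 counts and 16 were listed at 0. Values of the 37 kept members were also compared under the 6 scalings. Of these, 46 (cardiotoxin against normal), 48 (cardiotoxin against denervated) and 57 (denervated against normal) moved by more than counting error. The values that did not move numbered 176, 174 and 165. The 13 kept members listed at 0 in cardiotoxin were always counted there as not moved, since their interval is open toward 0. The 176 and 174 therefore do not show stability. In denervated against normal, 8 of 40 ratios changed sign under at least 1 scaling.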

Other observations

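4 rows outside the comparisons carried a hairpin number of the cluster under another name. The row named for miR-134-5p of another species (dno) had 52 counts in normal, 94 in denervated and 0 in cardiotoxin, and that for miR-154-5p (cpo) had 45, 59 and 0. The row named for miR-323a (ggo, p5) had 5, 13 and 0 counts, and mmu-mir-494-p5, the other strand of the miR-494 hairpin, 0, 11 and 0. All 4 were listed at 0 in cardiotoxin.

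2 miRNAs of the region list were at least 2-fold higher in denervated than in normal, and they are named because their values were seen. miR-1247-5p was at 303 CPM in normal, 980 in denervated and listed at 0 in cardiotoxin, from 1353, 7048 and 0 counts. miR-1247-3p had 9, 54 and 0 counts. No member of the Mirg cluster had such a ratio in denervated.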
